A study of Mus musculus with 26 samples.

Results

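Endothelial cells line the vessels and, as endocardium, the inside of the heart, and 5 genes that mark them were followed through 13 embryonic mouse hearts: Kdr, Tie1, Cdh5, Klf2 and Eng. They were 5 of the 6137 genes named by the annotation of the A and B arrays, and 6 probe sets were annotated to them, 2 of these to Cdh5. The genes were chosen by 2 measured differences from earlier results of the same data, null against wild-type hearts and later against earlier heart numbers, so both are given here as description. Total RNA came from the entire heart at embryonic day 12.5. The mouse line carries an allele of the cardiac homeodomain gene Nkx2.5 that lacks its NK2-specific domain. The wild-type group held 5 hearts (numbered 1, 2, 7, 9 and N1), the heterozygous group 4 (5, 6, 12 and N2) and the null group 4 (3, 4, 8 and N3). An entire heart mixes endocardium and vessels with muscle, mesenchyme, epicardium and blood, so fewer cells of a type and less RNA per cell cannot be told apart. The labels give no strain, litter, sex, date, pairing or pooling of embryos, and p-values therefore measure only the spread between these hearts.

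Endothelial cells sense their surroundings through surface receptors that mark the lineage. Kdr is the main signalling receptor for VEGF, which drives endothelial specification and growth. Tie1 is the orphan partner of the angiopoietin receptor Tek, Eng is a co-receptor for TGF-beta and BMP ligands, Cdh5 is the cadherin of endothelial junctions, and Klf2 is a transcription factor induced by blood flow. In the embryonic heart the endocardium also gives rise to the cushion mesenchyme from which the valves form, and Eng is needed in the mouse for cushion formation.

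Promoter windows from RefSeq (GRCm38.p6), from 250 bases before to 50 bases after the gene start, were matched for 4 of the 5 genes. The windows of Tie1 and Eng are shown because these genes moved together across hearts, and that of Kdr because it showed no positive relation with them. Capitals mark GGAA, the core bound by ETS factors, and AAGTG, the core bound by NK2 homeodomain factors, searched on both strands (TTCC and CACTT in reverse). The windows lie at chr4:118489800-118490099 on the minus strand (Tie1), chr2:32646345-32646644 on the plus strand (Eng) and chr5:75978406-75978705 on the minus strand (Kdr), and read 5′ to 3′ as follows.
Tie1: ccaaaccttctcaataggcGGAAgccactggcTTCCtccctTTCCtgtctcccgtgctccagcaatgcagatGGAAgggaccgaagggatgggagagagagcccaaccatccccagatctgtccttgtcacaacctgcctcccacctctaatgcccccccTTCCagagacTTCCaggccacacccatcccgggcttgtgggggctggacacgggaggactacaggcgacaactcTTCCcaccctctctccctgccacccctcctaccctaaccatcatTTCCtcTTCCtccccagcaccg
Eng: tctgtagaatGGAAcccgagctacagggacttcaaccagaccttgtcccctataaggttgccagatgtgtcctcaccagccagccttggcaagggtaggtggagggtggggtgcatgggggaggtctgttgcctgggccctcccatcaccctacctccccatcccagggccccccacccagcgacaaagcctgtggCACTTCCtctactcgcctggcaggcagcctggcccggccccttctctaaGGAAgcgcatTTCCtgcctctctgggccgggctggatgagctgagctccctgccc
Kdr: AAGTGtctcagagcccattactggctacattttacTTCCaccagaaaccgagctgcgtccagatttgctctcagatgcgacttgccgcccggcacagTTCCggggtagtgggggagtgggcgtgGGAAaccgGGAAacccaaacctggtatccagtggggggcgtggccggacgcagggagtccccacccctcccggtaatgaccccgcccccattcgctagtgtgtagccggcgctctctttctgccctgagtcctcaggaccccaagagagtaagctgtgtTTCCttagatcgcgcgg
The Tie1 window held 9 GGAA matches, and 1.59% of the 32851 promoter windows hold as many or more, while Kdr held 5, Eng 4 and Klf2 1. AAGTG occurred once in Eng, where it overlapped a GGAA match, and once in Kdr, and 46.4% of windows hold it. CACCC, a box bound by Krüppel-like factors and not capitalised here, occurred 4 times in Eng and 3 times in Tie1, and 3.10% and 9.35% of windows hold as many. These matches are letters in a window and describe no binding.

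Deposited values were intensities on a linear scale, called signal here. A signal under 2 times the noise of its table (887 for A, 1373 for B) was below the floor and was raised to it before taking log2, and a probe set entered the test with signal above the floor on 4 or more arrays and 2 or more values per genotype. Of the 6 probe sets, 5 passed this filter. The second Cdh5 probe set, d63942_s_at, lay between -134.5 and 710.9 in 10 hearts, below the floor in each, and was not tested. All 6 probe set names end in _s_at, which marks sets whose probes can match more than 1 transcript. Several other endothelial genes were above the floor in every heart with a value, for example Tek (10 of 10), Icam2 (13 of 13) and Thbd (13 of 13). Others were dimmer: for example, Pecam1 passed it in 5 of 10, Emcn in 6 of 13, and Flt1 and Nos3 in 0 of 10 each.

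Tie1 and Eng followed each other from heart to heart and were highest in heterozygous hearts within each set of heart numbers, but neither differed between genotypes beyond the spread of the hearts after adjustment. Tie1 signal in wild-type hearts was 3569 in heart 1, 4986 in heart 2, 6122 in heart 7, 7503 in heart 9 and 6686 in heart N1. In heterozygous hearts it was 5309 in heart 5, 6152 in heart 6, 7948 in heart 12 and 7069 in heart N2, and in null hearts it was 3415 in heart 3, 3815 in heart 4, 6233 in heart 8 and 5377 in heart N3. The 3 genotypes overlapped, and hearts 1 to 6 gave the lowest value of every genotype. Mean Tie1 signal was 6620 ± 1141 (SD, n = 4) for heterozygous, 5773 ± 1535 (n = 5) for wild-type and 4710 ± 1322 (n = 4) for null.

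Eng signal in wild-type hearts was 11278 in heart 1, 10509 in heart 2, 18683 in heart 7, 20836 in heart 9 and 15431 in heart N1. In heterozygous hearts it was 13963 in heart 5, 14904 in heart 6, 24539 in heart 12 and 18309 in heart N2, and in null hearts it was 8384 in heart 3, 8768 in heart 4, 24514 in heart 8 and 15026 in heart N3. Null heart 8 was close to the highest Eng signal of the series, whereas null hearts 3 and 4 were its lowest, so that the null group spanned the range of the other genotypes. Mean Eng signal was 17929 ± 4786 (SD, n = 4) for heterozygous, 15347 ± 4506 (n = 5) for wild-type and 14173 ± 7537 (n = 4) for null.

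**Figure D1:**
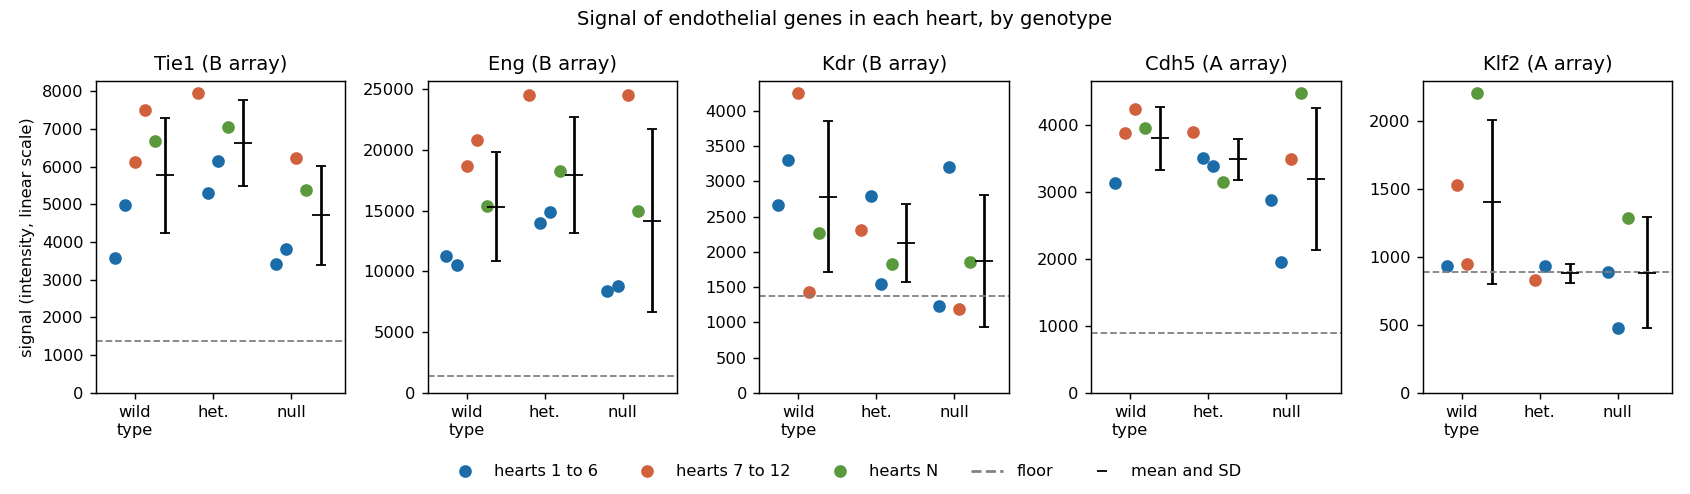
Signal (intensity, linear scale) of Tie1, Eng, Kdr, Cdh5 and Klf2 in each heart, by genotype, with the mean and SD beside each group. Points are hearts coloured by heart number and the dashed line is the floor; blue points (hearts 1 to 6) sit at the bottom of each genotype for Eng, and the genotypes overlap for Tie1, Eng and Kdr.

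Kdr signal in wild-type hearts was 2665 in heart 1, 3308 in heart 2, 4257 in heart 7, 1426 in heart 9 and 2263 in heart N1. In heterozygous hearts it was 2799 in heart 5, 1547 in heart 6, 2310 in heart 12 and 1821 in heart N2, and in null hearts it was 1238 in heart 3, 3203 in heart 4, 1186 in heart 8 and 1852 in heart N3. The groups overlapped, and null hearts 3 and 8 were below the floor. Mean signal was 2784 ± 1069 (SD, n = 5) in wild-type, 2119 ± 552 (n = 4) in heterozygous and 1870 ± 939 (n = 4) in null hearts, and the order of these means rests on overlapping values.

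Cdh5 signal in wild-type hearts was 3134 in heart 2, 3879 in heart 7, 4241 in heart 9 and 3954 in heart N1, with heart 1 blank. In heterozygous hearts it was 3516 in heart 5, 3394 in heart 6, 3896 in heart 12 and 3157 in heart N2, and in null hearts it was 2879 in heart 3, 1949 in heart 4, 3491 in heart 8 and 4481 in heart N3. The null group held both the lowest and the highest Cdh5 signal, and the means of 3802 ± 472 (SD, n = 4) for wild-type, 3491 ± 309 (n = 4) for heterozygous and 3200 ± 1064 (n = 4) for null differed by less than the spread of the null hearts. Klf2 was near the floor and had a value in 9 hearts, 7 of them above the floor: 934 in wild-type heart 2, 1533 in heart 7, 950 in heart 9 and 2210 in heart N1, 931 in heterozygous heart 5 and 828 in heart 12, and 891 in null heart 3, 475 in heart 4 and 1291 in heart N3. Wild-type hearts 7 and N1 and null heart N3 were the highest, and the other 6 hearts lay at or under 950. The heterozygous hearts lay below all 4 wild-type hearts, by as little as 931 against 934, as was so for 3.27% of all probe sets, and null hearts overlapped the others.

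Heterozygous against wild type was not used in choosing the genes, but it shares the wild-type hearts with a comparison that was. It gave no call for any of the 5 genes by limma with Benjamini-Hochberg adjustment. Of all 4494 probe sets, 0.0% were called and 152 had an unadjusted p under 0.05. The log2 differences were 0.23 ± 0.23 (SE) for Tie1, 0.24 ± 0.30 for Eng, -0.34 ± 0.32 for Kdr, -0.12 ± 0.21 for Cdh5 and -0.53 ± 0.31 for Klf2, with adjusted p of 0.981 for Tie1, Kdr and Klf2 and 0.990 for Eng and Cdh5. The 95% interval for Eng ran from -0.40 to 0.88 and that for Tie1 from -0.27 to 0.72, so these values do not show that the genotypes are alike. For Klf2 the heterozygous group rested on 2 hearts.

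Null against heterozygous, which shares the heterozygous hearts with the comparison above, likewise gave 0 calls among the 5 genes by limma (0.0% of all probe sets called, 251 with an unadjusted p under 0.05). It also shares the null hearts with null against wild type, which was used to choose the genes. Its p-values are therefore not independent of that choice. Tie1 was lower by a log2 difference of -0.52 ± 0.24 (unadjusted p = 0.0506, adjusted p = 0.830), with a 95% interval of -1.04 to 0.0015. Eng was at -0.45 ± 0.32, Cdh5 at -0.19 ± 0.23, Kdr at -0.18 ± 0.33 and Klf2 at 0.15 ± 0.31, with adjusted p from 0.889 to 0.951, and the signs of Kdr, Cdh5 and Klf2 turned under at least 1 other setting. In the same comparison 8 of 9 tested cardiomyocyte markers were higher, with a median log2 difference of 0.35 and 0 called, and their part in the Tie1 and Eng values was not tested. Null against wild type, which was used to choose the genes, gave log2 differences of -0.51 for Kdr, -0.39 for Klf2, -0.30 for Cdh5, -0.29 for Tie1 and -0.21 for Eng as description, where 0.0223% of probe sets were called. In this comparison 9 of 9 cardiomyocyte markers were higher (median 0.45, 0 called), with a summed signal over 3 markers of 139021 to 245131 in null and 54674 to 293924 in wild-type hearts. The lowest wild-type sums, 69521 and 54674, came from hearts 7 and 9, whose B arrays had a low range. The B array of heterozygous heart 12 (sum 59462) also had a low range, and that of no null heart did. Of 7 erythroid markers, 6 were higher (median 0.32, 0 called). The part of both marker lists, and of array range, in the values of the 5 genes was not tested. Without the mostly blank arrays Eng was at 0.18 and Tie1 at 0.08 in that comparison, and without the low-range B arrays of hearts 7, 9 and 12 Eng was at 0.07.

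Hearts fell into 3 sets by number, 1 to 6 (6 hearts), 7 to 12 (4 hearts) and N (3 hearts), each with all genotypes, and the labels do not say what the numbers stand for. Hearts 7 to 12 and N gave log2 differences over hearts 1 to 6 of 0.81 ± 0.14 (SE) for Eng, 0.59 ± 0.12 for Tie1, 0.43 ± 0.23 for Klf2, 0.37 ± 0.15 for Cdh5 and -0.25 ± 0.26 for Kdr. This difference was used in choosing the genes and is given as description, with the background that 7.14% of probe sets were called in either direction and 3.87% as higher. The split into earlier and later hearts was itself chosen on these data. Every call and adjusted p-value on that split is therefore description as well. Eng did not overlap between hearts 1 to 6 (at most 14904) and the later hearts (at least 15026), and the later hearts were all higher for 3.4% of all probe sets. Tie1 overlapped, since heterozygous heart 6 (6152) exceeded null heart N3 (5377).

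The B arrays that carry Tie1, Eng and Kdr differed in range between these sets: their 98th percentile was 24625 to 61195 in hearts 7 to 12, 43348 to 53873 in hearts N and 50257 to 66212 in hearts 1 to 6. The B arrays of hearts 7, 9 and 12 also stood apart in control probe sets: Gapdh 3′ signal was 26320 to 36137, against at least 60524 on the other B arrays, and the log2 ratio of Actb 3′ to 5′ signal was negative (-0.27 to -0.07), as on no other B array. Heterozygous heart N2 had the highest such ratio on both arrays, 1.03 on its B array. Without the B arrays of hearts 7, 9 and 12, which had the lowest percentiles, an alternative chosen after seeing the data, the log2 difference was 0.74 for Eng and 0.57 for Tie1. Markers of other cell types also differed between heart numbers. Of 11 tested mesenchyme markers, 10 were higher in the later hearts (4 called, median 0.55), with a summed signal over 6 markers of 60195 to 94129 against 51229 to 67805. Cardiomyocyte markers were lower for 9 of 9 (2 called, median -0.38), with a summed signal over 3 markers of 54674 to 245131 against 152093 to 293924. The lowest later sums were 69521, 54674 and 59462 in hearts 7, 9 and 12, those with the low-range B arrays. Hearts N gave 116699 to 158325. Of the smooth muscle markers 0 of 3 were higher, of the epicardium markers 2 of 3 (1 called) and of the erythroid markers 3 of 7 (1 called). The part of these cell types, and of array range, in the Tie1 and Eng values was not tested.

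Within each set of heart numbers, every heterozygous heart exceeded every wild-type heart for both Tie1 and Eng. Of the 1979 probe sets that allow this comparison, 6.22% showed it. The log2 differences of heterozygous over wild type were 0.44, 0.23 and 0.08 for Tie1 in hearts 1 to 6, 7 to 12 and N, and 0.41, 0.31 and 0.25 for Eng. Every null heart was also below every heterozygous heart within each set for both genes, as for 7.05% of the 3066 probe sets that allow it, although for Eng in hearts 7 to 12 the values were 24514 and 24539. Hearts 7 to 12 and hearts N each held 1 heterozygous and 1 null heart. Array range differed within hearts 7 to 12: the B 98th percentile was 31790 for heterozygous heart 12 and 61195 for null heart 8. The heart-number set therefore does not hold array range constant. With the heart-number set as a block, the limma log2 difference of heterozygous over wild type was 0.36 ± 0.13 for Eng (unadjusted p = 0.0152, adjusted p = 0.807) and 0.30 ± 0.14 for Tie1 (adjusted p = 0.835). With the same block, null against heterozygous was -0.52 ± 0.15 for Tie1 (adjusted p = 0.340) and -0.45 ± 0.14 for Eng (adjusted p = 0.384). None of these passed the adjustment, and null against heterozygous shares its null hearts with a comparison used in choosing the genes.

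**Figure D2:**
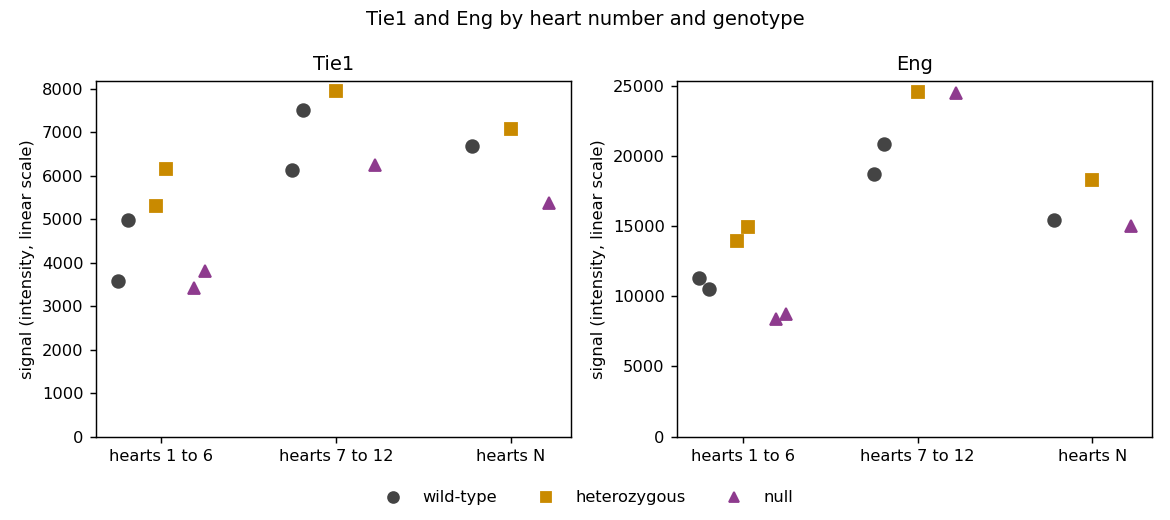
Signal (intensity, linear scale) of Tie1 and Eng in hearts 1 to 6, 7 to 12 and N, with a symbol per heart by genotype. Heterozygous squares lie above the wild-type circles in each set, and the null triangles lie below the squares, nearly level with it for Eng in hearts 7 to 12.

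Across hearts the 5 genes did not move as 1 group. Correlations over all hearts contain the difference between heart numbers that was used in choosing the genes, so they are given as description. The test is that of deviations within the heart-number sets. Those deviations still hold the null against wild-type difference, also used in choosing the genes, so their p-values are not free of the choice. Of 10 gene pairs, Tie1 and Eng were closest, with Pearson r = 0.89 and Spearman rho = 0.90 over 13 hearts, and r was 0.87 without hearts 1 and 3. As deviations from the means of the heart-number sets, r was 0.76 (permutation within sets, p = 0.0192, adjusted over the 10 pairs p = 0.192), and in hearts 1 to 6 alone it was 0.83 (exact permutation p = 0.0625). The relation therefore kept its sign within sets but did not pass the adjustment there. Both genes were read on the same B arrays, so they share each array's scaling.

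Cdh5, read on the A arrays, correlated with both over 12 hearts, with r = 0.68 and rho = 0.59 for Tie1 and r = 0.68 and rho = 0.62 for Eng, again as description. With Tie1, r was 0.24 without null hearts 3 and 4, the farthest from the Tie1 median. With Eng, r was 0.69 without null hearts 4 and N3, the farthest from the Cdh5 median. Different hearts were left out, so these values do not show which relation depends more on single hearts. Within heart-number sets r was 0.41 and 0.39 (permutation within sets, p = 0.350 and 0.409), with adjusted p of 0.871 in each.

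Kdr showed no positive relation with Tie1, Eng or Cdh5. Its r was -0.24 with Eng and -0.18 with Tie1 over 13 hearts, -0.21 with Cdh5 over 12 and 0.17 with Klf2 over 9. Within heart-number sets it was -0.22, -0.06, -0.15 and 0.57 in that order, and the value with Klf2 was the second highest of the 10 pairs (permutation within sets, p = 0.127, adjusted p = 0.636). Without hearts 3 and 7 the r with Eng was -0.75, and the sign with Eng, Tie1 and Klf2 turned under quantile scaling (0.05, 0.17 and -0.15). Klf2 gave r between 0.26 and 0.44 with Tie1, Eng and Cdh5 over 9 hearts, and within heart-number sets these turned to -0.03, -0.19 and -0.11 (permutation within sets, adjusted p from 0.871 to 0.914).

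**Figure D3:**
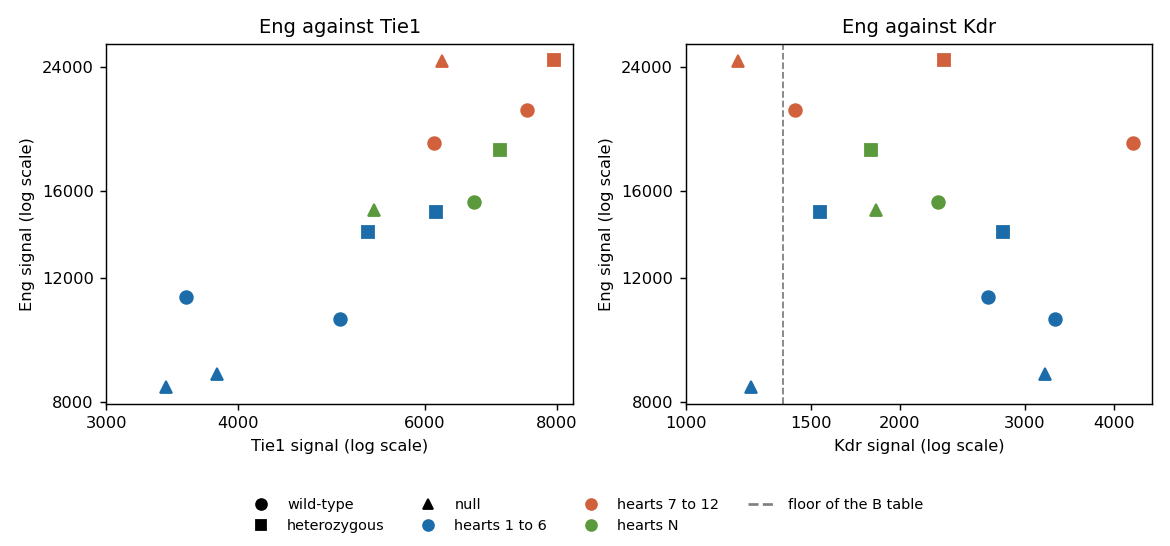
Eng signal against Tie1 signal and against Kdr signal in 13 hearts, both axes on log scales, with symbols for genotype and colours for heart numbers. Eng rises with Tie1 (r = 0.89) and shows no such order with Kdr (r = -0.24).

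**Figure D4:**
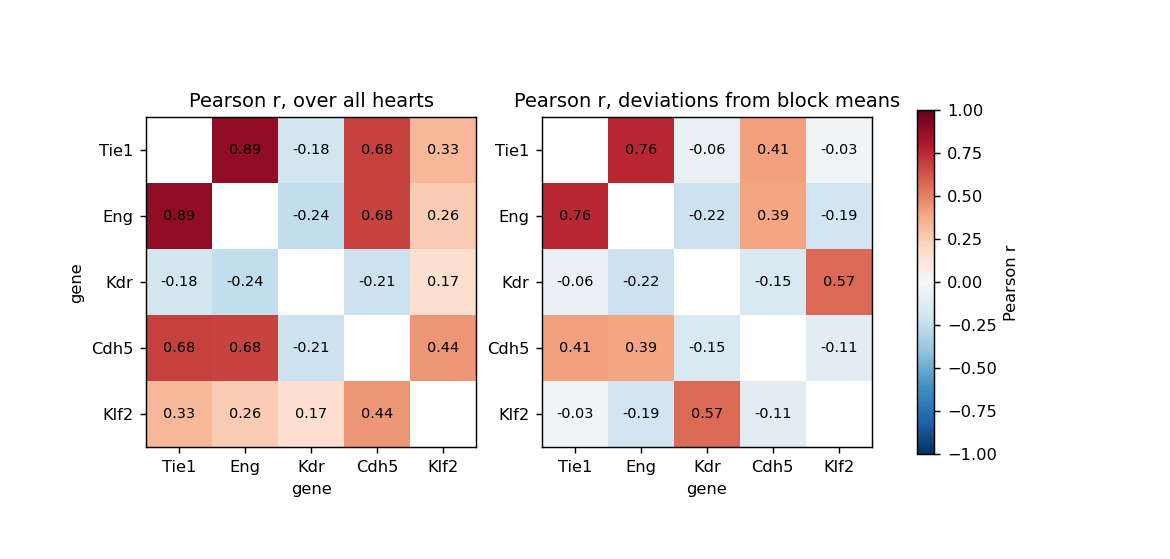
Pearson r between genes over all hearts and over deviations from the means of the heart-number sets, each gene on both axes and colour from -1 to 1. Tie1 and Eng keep the highest value in both panels (0.89 and 0.76), and the values of Cdh5 with them drop from 0.68 to 0.41 and 0.39.

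Genes on either array with at least 10 shared hearts and signal above the floor in at least 8 were ranked by r with each member, as description. For Tie1 they were Tle5, a Groucho-family co-repressor (0.95 over 13 hearts), Fam120a (0.94 over 10) and the matrix gene Fbln1 (0.94 over 13). For Eng they were Cant1 (0.94 over 10), Git1 (0.94 over 10) and the vascular and mesenchymal transcription factor Foxc2 (0.92 over 13). As deviations within heart-number sets, Eng was closest to Git1 (0.94), the potassium channel gene Kcnh2 (0.87) and Tle5 (0.86), and Tie1 to Erdr1 (0.91), Wbp1l (0.90) and Fdx1 (0.89). Of these genes, Git1 ranked among the closest to Eng in both ways.

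For Cdh5 the closest were Selenot (0.95 over 11 hearts), Klhdc2 (0.95 over 11) and Acaa2 (0.94 over 10), and within heart-number sets the laminin gene Lamc1 (0.95), Ywhag (0.93) and Selenot (0.93). For Kdr they were B4galt1 (0.78), the monocarboxylate transporter Slc16a1 (0.78) and Pea15a (0.77), each over 10 hearts, and within sets Klc1 (0.88), Slc16a1 (0.86) and Gsn (0.85). Klf2 had values in 9 hearts and could not be ranked. These leading values came from 2128 probe sets searched for Cdh5 and 2343 for each of the other 3 genes, and the points share arrays and scaling.

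Of 92 further genes in 8 lists of endothelial and endocardial function, 62 had a probe set and 30 were tested. Between heterozygous and wild-type hearts 14 were higher and 16 lower, with 0 called and a median log2 difference of -0.07 beside -0.01 for all probe sets. Null against heterozygous gave 13 higher and 17 lower, 0 called, and a median of -0.09 beside 0.02. Among VEGF genes, the co-receptor Nrp1 was at 0.53 ± 0.34 (SE) and the ligand Vegfb at -0.29 ± 0.27 in heterozygous over wild type. The Tie1 partner Tek was at 0.08 ± 0.28 and its ligand Angpt1 at -0.45 ± 0.26. Angpt1 had heterozygous values in 2 hearts, 473 and 877, both below the floor. For Nrp1, Vegfb and Tek the heterozygous group also rested on 2 hearts, as it did for Bmp4 and Smad2 below. Of 5 TGF-beta and BMP genes, 4 were higher in heterozygous than wild-type hearts, including Bmp4 (0.44 ± 0.29) and its target Id1 (0.29 ± 0.22), and 4 were lower in null than heterozygous hearts, including Smad2 (-0.40 ± 0.20), with 0 called.

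In the endocardial list, Ednrb, the endothelin B receptor, was at 0.96 ± 0.34 (SE) in heterozygous over wild-type hearts (limma adjusted p = 0.981) and at -0.95 ± 0.34 in null over heterozygous (adjusted p = 0.830). Npr3, the natriuretic peptide clearance receptor of the endocardium, was at 0.51 ± 0.22 and -0.48 ± 0.22. Both heterozygous hearts with a value were above all others: Ednrb was 2129 and 2549 against 478 to 2103 in wild-type and 790 to 1459 in null hearts, and Npr3 was 3393 and 3570 against 2215 to 2919 and 2175 to 3216. Heterozygous hearts lay wholly above wild type for 2.67% of probe sets, and null hearts wholly below heterozygous for 3.98%. The other 3 tested genes of the endocardial list were lower in heterozygous than wild-type hearts. Hbegf was at -0.20 and 0.37, Gja4 at -0.21 and 0.02, and Gja5 at -0.05 and -0.34. In the list of junction and surface genes, Emcn, an endothelial sialomucin, was at 0.23 ± 0.11 and -0.21 ± 0.11, and its genotypes overlapped. Cd34 (-0.48 and 0.26) and Ctnnd1 (-0.28 and 0.46) of that list went the other way. In each comparison 3 of its 6 tested genes were higher and 3 lower. The paired differences of these genes share the heterozygous hearts and are not independent.

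Between heart numbers, a split chosen on these data, the calls and adjusted p-values are description. Of the 30 genes, 1 was called, Foxc2, which was higher in the later hearts by 0.54 ± 0.11 (limma adjusted p = 0.0147). A single call among 30 is near the 3.87% of all probe sets called higher, so the count is no result about the lists. Its signal was 946 to 1931 in hearts 1 to 6 and 1838 to 2637 in the others. The hematopoietic and endothelial factors Tal1 (0.69 ± 0.23) and Gata2 (0.48 ± 0.15) did not pass (adjusted p = 0.0849 and 0.0763), and 4 of 5 genes in the endothelial transcription factor list were higher. The endocardial list went the other way, with 0 of 5 higher, including the connexin Gja5 (-0.53 ± 0.17, adjusted p = 0.0782).

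**Figure D5:**
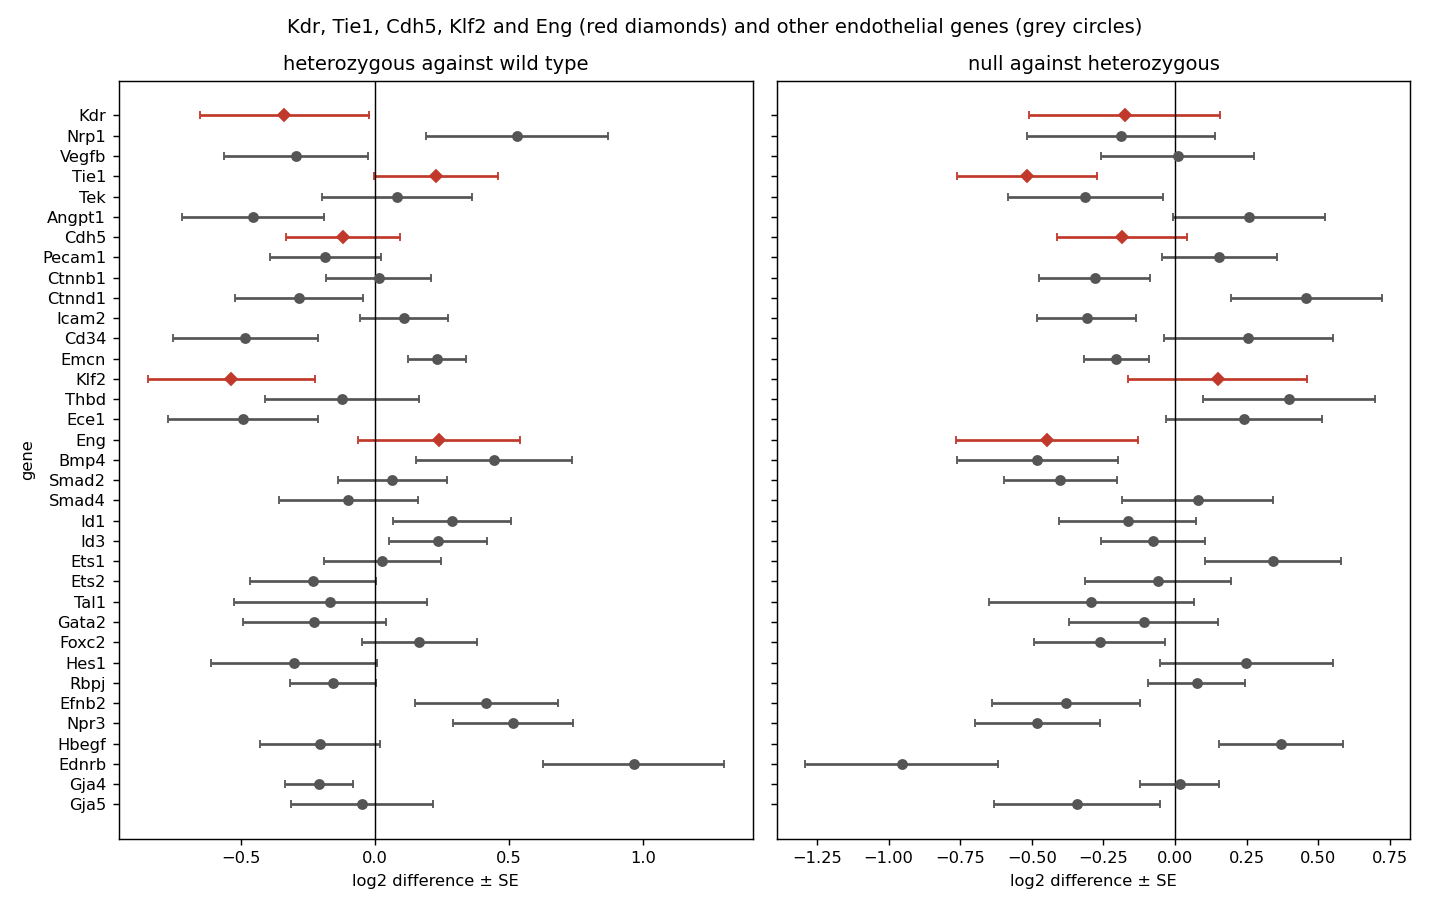
Log2 difference with its SE for heterozygous against wild type and for null against heterozygous, for Kdr, Tie1, Cdh5, Klf2 and Eng (red diamonds) and 30 other endothelial genes (grey circles), one gene per line. Ednrb has the widest difference in both panels, 0.96 and -0.95, and 0 of the genes passed the adjusted threshold.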

How the data were processed

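The values the authors deposited are linear-scale intensity, 1 per probe set and array, and the software that made them is not given in the sources used here. Each of 13 hearts had an A array (6584 probe sets) and a B array (6595). Negative values and blocks of blank cells occurred, and blanks were treated as missing. Noise was estimated per table from the negative values as their root mean square (443 for A, 686 for B). After raising values to a floor of 2 times the noise and taking log2, 1 model per table was fitted to all 13 hearts with limma 3.58.1 in R 4.3.3 (variance trend, two-sided moderated tests), with Benjamini-Hochberg adjustment over 4494 probe sets and a threshold of 0.05. Co-variation used Pearson and Spearman correlations with 100000 permutations, or exact ones under 10 hearts, adjusted over 10 gene pairs. Gene names came from the platform annotation updated through RefSeq (GRCm38.p6). Genes outside the 5 were named by highest r (3 per gene), by smallest p (up to 4 per list), or because they were called. The smallest p was taken in heterozygous against wild type or null against heterozygous. Flt1 and Nos3 were not tested and were named to describe detection. The members, lists and tests were chosen with earlier results of these data known. The fit of heterozygous against wild type without a block was tested on simulated data, with planted changes larger than the differences reported here. The other fits were not tested in this way. The number of arrays limits the precision.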

Additional observations from a re-analysis of the deposited data

Results flagged for a closer look

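Klf2 in null heart 4 was 474.6, below the other hearts with a value among 1 to 6, and was marked by its gap to the nearest heart; 22 groups were examined and chance marks about 5% of them. The value is below the floor of 887 and close to the noise of 443, and the other 3 hearts (891, 931 and 934) lie just above the floor, so the gap is within the range that was raised to the floor before testing. The Eng log2 difference of null over wild type was -0.34 in hearts 1 to 6 (-0.3446) and 0.31 in hearts 7 to 12 (0.3132), with every null heart lower in the first set and the single null heart higher in the second. That opposite direction was not tested, and it rests on 1 null heart in the second set.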

How the results depend on the processing

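No alternative called any of the 5 genes between genotypes, and the lowest adjusted p over settings was 0.340 (Tie1, null against heterozygous, heart-number block). The heterozygous-wild-type count was 0 in every setting and the null-heterozygous count was 1 with the block. The null-wild-type count of 1 was 2 at a floor of 1 times the noise, 4 with the block, and 0 with quantile scaling, without a filter, without the mostly blank arrays, without hearts N or without the 3 low-range B arrays, and 0 to 3 leaving out each heart. The heart-number count of 321 was 206 at a floor of 4 times the noise, 135 with quantile scaling, 198 without a filter, 192 without mostly blank arrays, 181 without the low-range B arrays, and 103 to 342 leaving out each heart. Over all hearts, which includes the heart-number difference used in choosing the genes, 3 pairs had an adjusted p under 0.05, 1 with quantile scaling and 1 to 3 leaving out each heart, but within heart-number sets none did (lowest adjusted p = 0.192 by permutation). The r of Tie1 with Eng stayed between 0.85 and 0.93. Signs turned for Kdr null over heterozygous (0.049 at floor 4), Klf2 (-0.103 at floor 1, -0.0824 with the block, -0.0313 without hearts N and leaving out single hearts from -0.0313 to 0.24), Cdh5 (leaving out single hearts, -0.37 to 0.032), and for r of Kdr with Tie1 (0.173), Eng (0.0544) and Klf2 (-0.154) under quantile scaling, with Klf2 also -0.0003 at floor 1 and -0.0557 to 0.35, and with Cdh5 -0.38 to 0.0999, leaving out single hearts. Eng null over wild type was 0.18 and Tie1 0.08 without mostly blank arrays. The causes were not tested. Klf2 could not be fitted at floor 4 or without heart 5 or 12. No paired analysis was possible because genotypes share no heart number.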
